A study of Homo sapiens with 4 samples.

Results

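Divergent coding promoters are stretches of DNA from which 2 protein-coding genes are transcribed in opposite directions, and Flag-FLI1 peaks that were present at them in both a control and an IFN-γ library are described here. Chosen were control peaks with an overlap of 1 bp or more with any IFN-γ peak and a summit within 1 kb of the start sites (TSSs) of both genes, provided that the TSSs were divergent, no more than 1 kb apart and those of the Ensembl canonical transcripts of GENCODE 44. By this rule 763 of 30819 control peaks were chosen. The peaks were thus chosen by measured values, namely the presence of a peak in each list and the position of the control summit, so these 2 properties are a description and support nothing. HK1 is an established nasopharyngeal carcinoma cell line. Both groups consisted of HK1 cells that overexpressed Flag-tagged FLI1. The control cells received PBS and the other cells IFN-γ, both for 24 h. Chromatin was precipitated through the Flag tag, which the overexpressed protein carries and endogenous FLI1 does not. The series has no Flag precipitation from cells without the tag, so unspecific signal in the peaks cannot be told apart. There was 1 library per condition, so the treatment and the library cannot be told apart, no test was possible and every interval below covers counting error only. Peak lists hold no expression values, so the cell type was not checked against its markers.

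FLI1 belongs to the ETS family of transcription factors, whose DNA-binding domain recognises a GGAA core and the letters around it. ETS sites in which the core follows a CpG are common in the promoters of housekeeping genes, and several members of the family can bind the same site. Divergent promoters are usually CpG-rich, lack a TATA box and often join genes of DNA repair, mitochondrial function and RNA metabolism.

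The sites below are shown because they lie at the summits of the highest-ranked peaks, by mean rank of −log10 p over both libraries. Each holds 30 bases of GRCh38 on the strand named, 5′ to 3′, and the capitals mark the GGAA core with the letters on either side of it. Where the window of 100 bp either side of the control summit held the ETS octamer (CCGGAAGT or CAGGAAGT), the octamer nearest the summit is shown, otherwise the hexamer CGGAAG, otherwise the nearest GGAA.
DDX5/CEP95, chr17:64506743-64506772, plus strand: gaaatagctcaCCGGAAGTgcgctgctcgc
ATPSCKMT/CCT5, chr5:10249996-10250025, minus strand: tgggtcccaagGAGGAATTcattgacttaa
SIRT6/ANKRD24, chr19:4182574-4182603, minus strand: ccccgcttccgGCGGAAGCggcctcaacaa
UFD1/CDC45, chr22:19479197-19479226, plus strand: ccagaggctcaCCGGAAGTgccggacccga
BRD9/TRIP13, chr5:892811-892840, plus strand: cggggccgcggCAGGAAGTggccctgccgg
NSUN2/SRD5A1, chr5:6633044-6633073, minus strand: ttggtttccggCCGGAAGTcccgggaggtg
KBTBD4/NDUFS3, chr11:47578980-47579009, plus strand: tccacgtccgcCCGGAAGAagatctgctgc
NELFE/SKIC2, chr6:31959081-31959110, plus strand: gcggggctgtaCCGGAAGTtgcctctactt
Of these 8 sites, 4 carried CCGGAAGT and 1 carried CAGGAAGT. *SIRT6*/*ANKRD24* and *KBTBD4*/*NDUFS3* carried words that differ from the octamer but contain the hexamer. The site of *ATPSCKMT*/*CCT5* had neither.

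Whole stretches between the start sites are shown for 6 peaks, to show how many ETS cores such an interval held and on which strand. They were picked after their values were seen, as the stretches of 40 to 300 bp that overlap no annotated exon among the 100 best-ranked peaks of the chromosomes searched. All are read on the plus strand of GRCh38 from the minus-strand TSS to the plus-strand TSS, and the capitals mark GGAA, or TTCC where the core lies on the minus strand.
BRD9/TRIP13, chr5:892802-892883: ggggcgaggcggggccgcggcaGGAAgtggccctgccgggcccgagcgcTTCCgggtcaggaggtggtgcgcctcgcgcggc
GBA2/RGP1, chr9:35749229-35749286: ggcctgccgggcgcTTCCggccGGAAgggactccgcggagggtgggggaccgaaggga
TSR3/GNPTG, chr16:1351879-1351930: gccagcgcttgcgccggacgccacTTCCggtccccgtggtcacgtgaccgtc
CAB39L/SETDB2, chr13:49444065-49444273: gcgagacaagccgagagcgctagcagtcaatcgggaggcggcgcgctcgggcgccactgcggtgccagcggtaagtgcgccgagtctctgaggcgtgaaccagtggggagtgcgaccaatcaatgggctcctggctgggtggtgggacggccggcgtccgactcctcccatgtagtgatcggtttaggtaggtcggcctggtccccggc
ZNF668/ZNF646, chr16:31074241-31074421: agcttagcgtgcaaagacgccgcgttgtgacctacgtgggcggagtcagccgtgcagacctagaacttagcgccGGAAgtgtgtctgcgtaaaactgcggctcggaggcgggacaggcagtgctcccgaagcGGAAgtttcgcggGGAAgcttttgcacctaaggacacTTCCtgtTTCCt
LRRC41/UQCRH, chr1:46303617-46303697: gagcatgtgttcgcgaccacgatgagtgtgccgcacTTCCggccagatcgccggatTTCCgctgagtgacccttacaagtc
The stretch of *GBA2*/*RGP1*, 58 bp long, held 2 cores that point away from each other across a few bases, and its summits had fold enrichments of 60.9 (control) and 53.3 (IFN-γ). The stretch of *ZNF668*/*ZNF646*, between genes for zinc finger proteins, held 5 cores, of which 2 were octamers. The stretch of *TSR3*/*GNPTG* held 1 core, that of *LRRC41*/*UQCRH* 2 on the same strand, and that of *CAB39L*/*SETDB2* 0. The control summit of *ZNF668*/*ZNF646* lay 149 bp from the minus-strand TSS, with a fold enrichment of 32.8, and its IFN-γ summit had one of 23.9.

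Most divergent coding promoters held such a peak. GENCODE 44 gave 985 divergent coding pairs made of 1897 genes, and 806 pairs (81.8%, exact Clopper-Pearson 95% interval 79.3% to 84.2%) held at least 1 of the 763 peaks. These pairs comprised 1546 genes. A pair could hold 2 of the peaks, as 23 did, and 63 peaks lay at more than 1 pair. Of the other pairs, 56 had a control peak with no IFN-γ partner, 28 an IFN-γ peak alone and 95 no peak in either list, which says only that no signal passed the calling cutoff. One-way promoters, coding TSSs with no divergent canonical TSS of another gene of any type within 1 kb, held peaks less often. A shared peak had its summit within 1 kb of the TSS in 82.7% (81.0% to 84.4%) of 1895 genes of divergent pairs and in 39.1% (38.4% to 39.9%) of 16074 one-way genes. The classes also differed in base composition. CpG-rich TSSs, with a GC content of at least 55% and an observed-to-expected CpG ratio of at least 0.6 within 250 bp, made up 86.2% of the divergent and 59.7% of the one-way genes. Among CpG-rich TSSs the shares were 85.2% (83.4% to 86.9%) and 58.4% (57.4% to 59.4%), and among the other TSSs 67.4% (61.4% to 73.1%) and 10.6% (9.86% to 11.4%). A peak at the TSS of its partner can also count for a gene of a divergent pair, and 1 peak can count for both genes. One-way genes have no divergent partner, so these shares of genes are not like for like.

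Of the 846 control peaks at divergent coding promoters, 763 (90.2%, 88.0% to 92.1%) overlapped an IFN-γ peak, beside 77.5% of all control peaks. This overlap is part of the rule and nothing is read from it. The 83 control peaks left out were weak, with a median fold enrichment of 4.86 and a highest of 10.7.

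The 763 peaks were stronger than other shared peaks in both libraries. Their median fold enrichment, the signal at the summit over the local background, was 13.1 (12.2 to 13.8) for the control and 10.7 (10.03 to 11.5) for IFN-γ. The 6234 shared peaks of one-way promoters had medians of 10.5 (10.2 to 10.7) and 8.12 (7.94 to 8.28), and the 1254 shared peaks at promoters of a coding and a long non-coding RNA gene 11.7 and 9.10. Single peaks varied widely, with fold enrichments from 2.80 to 93.2 (control) and from 2.31 to 137.6 (IFN-γ). The pileup, the number of fragments stacked at the summit, had a median of 33 fragments in the control and 45 in the IFN-γ library, within ranges of 8 to 297 and 8 to 733. Among the top 10% of control peaks by −log10 p were 36.2% (32.8% to 39.7%) of the 763 peaks, beside 23% of the one-way peaks. The corresponding shares in the IFN-γ library were 32.8% (29.4% to 36.2%) and 18.6%. A promoter that was strong in one library tended to be strong in the other: across the 763 peaks Pearson's r of log2 fold enrichment was 0.81 and Spearman's rho 0.80, beside 0.64 and 0.57 over the 23895 shared peaks. The points of each correlation share 2 libraries, their depth and the base composition of the sites, and these are descriptions.

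**Figure D1:**
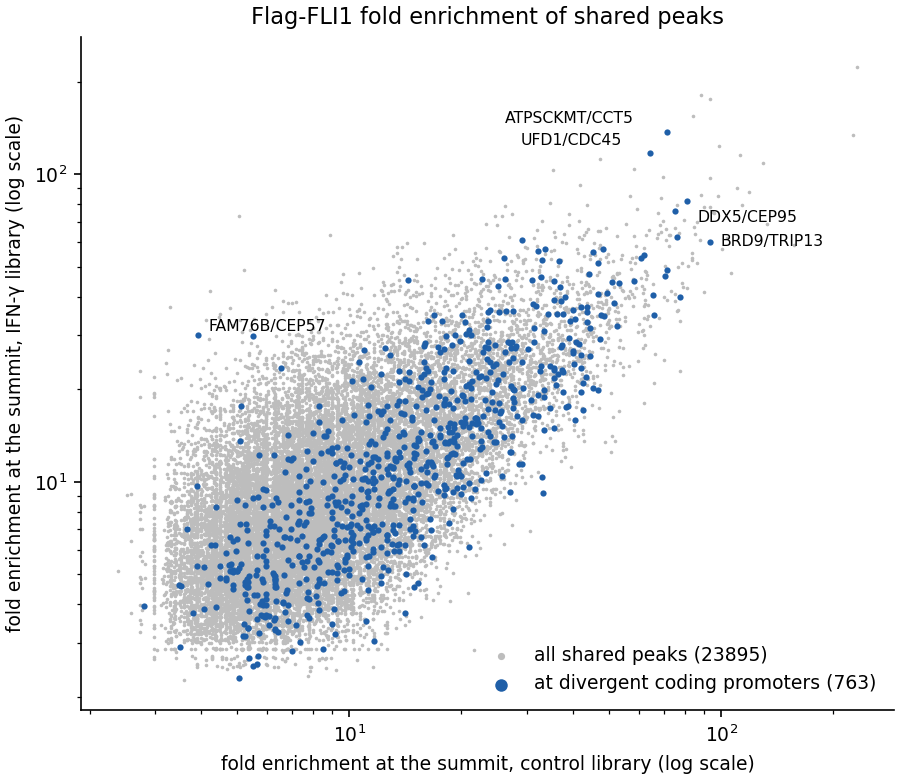
Fold enrichment at the summit in the control library (horizontal) and the IFN-γ library (vertical), both on log scales, for all 23895 shared peaks (grey) and the 763 peaks at divergent coding promoters (blue), 1 point per control peak. The blue points lie toward the upper right of the cloud, with *ATPSCKMT*/*CCT5* at 71.5 and 137.6, *BRD9*/*TRIP13* at 93.2 and 60.4, and *FAM76B*/*CEP57* apart on the left.

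The best-ranked peak lay between *DDX5*, which encodes an RNA helicase, and *CEP95*, which encodes a centrosomal protein (chr17:64505441-64507373). Its pileup was 297 fragments in the control and 573 in the IFN-γ library, with fold enrichments of 81.0 and 81.8 and ranks of 14 and 8. Its control summit lay 2 bp from the centre of the octamer printed above. The peak between *ATPSCKMT*, a methyltransferase gene of the mitochondrial ATP synthase, and *CCT5*, which encodes a subunit of the cytosolic chaperonin (chr5:10249523-10251040), ranked 31 among control peaks and 1 among IFN-γ peaks. There the pileup was 234 and 733 fragments and the fold enrichment 71.5 and 137.6, and the GC content within 100 bp of the summit was 43.3%, low among these promoters. The peak of *UFD1* and *CDC45*, genes for a cofactor of protein degradation and for a part of the replicative helicase, had 201 and 488 fragments (chr22:19478852-19479676) and fold enrichments of 64.3 and 116.8. Both had higher fold enrichments in the IFN-γ library, whereas *BRD9*/*TRIP13*, the most enriched of the 763 peaks in the control library at 93.2, had a fold enrichment of 60.4 in the IFN-γ library from 256 and 265 fragments (chr5:891930-893390). *BRD9* encodes a bromodomain protein of a chromatin remodelling complex and *TRIP13* an ATPase of the spindle checkpoint.

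The other 4 peaks of the best 8 had similar or lower fold enrichments in the IFN-γ library. *SIRT6*, a deacetylase gene, shares its promoter with *ANKRD24* (chr19:4181964-4182807), where fold enrichment was 75.1 and 76.2 from 225 and 372 fragments. At *NSUN2*, an RNA methyltransferase gene, and *SRD5A1*, a steroid reductase gene (chr5:6632583-6634228), it was 71.4 and 49.0 from 232 and 256 fragments. At *KBTBD4* and *NDUFS3*, the latter encoding a subunit of respiratory complex I (chr11:47578518-47579327), it was 76.0 and 62.5 from 189 and 226 fragments. The peak of *NELFE*, which encodes a negative elongation factor, and *SKIC2*, an RNA helicase gene (chr6:31958762-31959398), had 49.2 and 41.0 from 180 and 272 fragments. In 7 of these 8 pairs the 2 summits were 20 bp or less apart, the exception being *ATPSCKMT*/*CCT5* at 33 bp.

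Summits lay close to a start site and about as often between the TSSs as outside them. The distance between the TSSs had a median of 236 bp and ranged from 18 to 1000 bp. The control summit lay between them in 411 of the 763 peaks (53.9%, 50.3% to 57.4%), downstream of the minus-strand TSS in 202 and of the plus-strand TSS in 150. The IFN-γ summit lay between them in 408. In each library the peak itself usually spanned both start sites, in 75.4% of the control peaks and in 65.4% of their IFN-γ partners. The nearer TSS was a median of 60 bp from the control summit, against 134 bp (127 to 142) for the nearest coding TSS of the one-way peaks. A divergent peak had both TSSs of a pair near it by the rule, which a one-way peak did not need, so these distances are not like for like. The wider the gap, the more often the summit fell inside it. The share was 42.7% (34.4% to 51.2%) for 143 peaks with TSSs up to 100 bp apart, 49.9% for the 341 with up to 300 bp, 62.7% for the 193 with up to 600 bp and 68.6% (57.7% to 78.2%) for the 86 with up to 1000 bp. This rise is in part built in by the rule and nothing is read from it. A wider gap leaves more room inside it and less room outside within 1 kb of both TSSs. At the narrowest gaps the median control fold enrichment was 15.5 (14 to 18.2), and at the widest it was 11.2 (9.0 to 14.1), intervals that overlap. Some summits lay well outside: at *MCM7*/*AP4M1*, genes for a helicase subunit of replication and for an adaptor protein of vesicle traffic, the control summit was 679 bp from the nearer TSS, with a fold enrichment of 65.7.

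**Figure D2:**
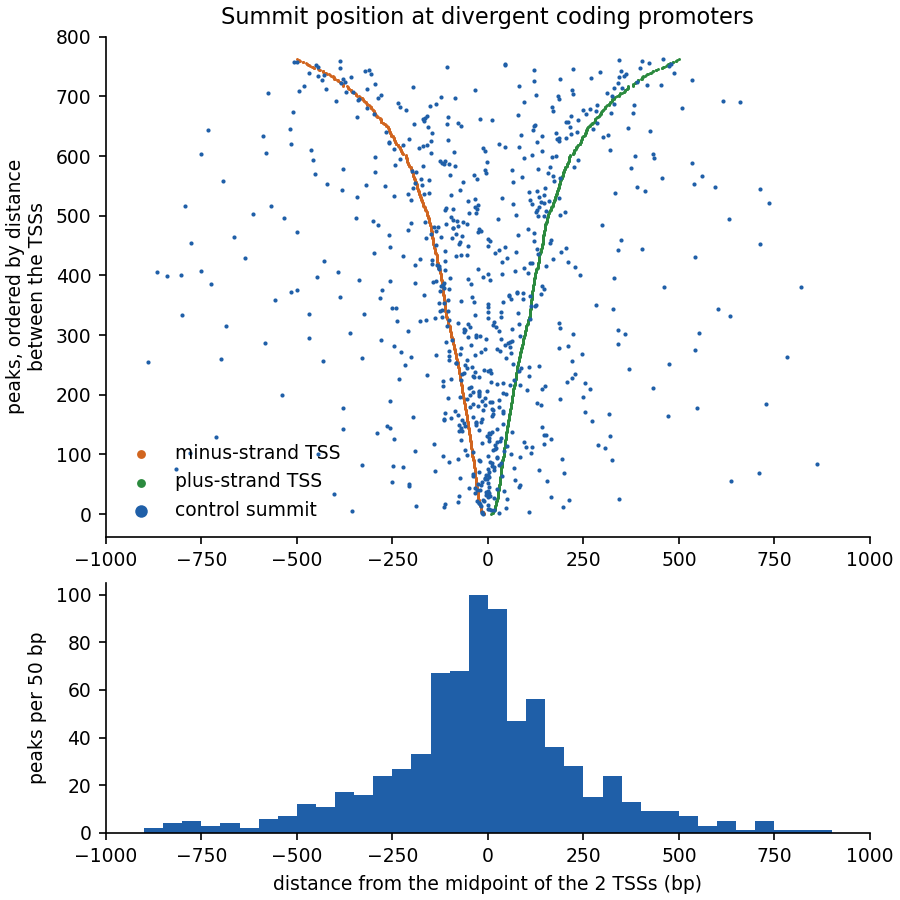
The upper panel sets the minus-strand TSS (orange), the plus-strand TSS (green) and the control summit (blue) of each peak, ordered by the distance between its TSSs, against distance in bp from the midpoint of the TSSs, and the lower panel counts summits per 50 bp. Within 100 bp of the midpoint lay 309 summits, but only 6 of the 86 with TSSs over 600 bp apart, whose summits lay a median of 341 bp from the midpoint and 69.5 bp from the nearer TSS.

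Letters of an ETS site were near the summit more often than at other promoters. The octamer (CCGGAAGT or CAGGAAGT, either strand) occurred within 100 bp of the control summit in 193 of the 763 peaks (25.3%, 22.2% to 28.5%), in 15.5% (14.7% to 16.5%) of one-way shared peaks and in 19.1% of the peaks shared by coding and non-coding RNA genes. The forms differed: CCGGAAGT was present in 22.3% (19.4% to 25.4%) of the divergent and 11.2% (10.4% to 12%) of the one-way peaks, whereas CAGGAAGT was present in 3.80% (2.56% to 5.41%) and 4.76% (4.25% to 5.32%), and in 9.10% of all shared peaks. The hexamer CGGAAG, which CCGGAAGT contains and which was added after the data were seen, occurred in 59.9% (56.3% to 63.4%) of the divergent and 43.0% (41.7% to 44.2%) of the one-way peaks. The GGAA core alone was near almost every summit, in 97.4% and 94.6%, so it hardly parted the classes. A run of 4 GGAA units in tandem, which in other cells attracts fusion proteins that contain the FLI1 domain, was found in 0 of the 763 windows, which allows a share of up to 0.482% (exact 95% bound), in 0.176% of the one-way peaks, in 0.0797% of the coding and non-coding RNA peaks and in 8.59% of all shared peaks. In the 50 bp either side of the summit the most frequent words after CCGGAAGT (145 peaks) were CCGGAAGC (100 peaks, 13.1%, against 8.79% of one-way peaks) and GCGGAAGT (57 peaks, 7.47%, against 3.87%).

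Windows were also placed by the TSSs and not by the summits. In 100 bp either side of the midpoint of the TSSs, the octamer was present in 13.7% (11.6% to 16.0%) of all 985 divergent pairs. It was present in 16.0% (13.5% to 18.7%) of the 806 pairs with a shared peak and in 3.35% (1.24% to 7.15%) of the 179 without one. In windows of the same length that ended at the TSS of one-way genes, with or without a peak, it was present in 5.48% (5.13% to 5.84%). The midpoint windows and the one-way windows lie at unlike distances from a TSS.

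Peaks with the letters were stronger in both libraries. The 193 peaks with an octamer had a median fold enrichment of 19.1 (17.9 to 20.6) in the control and 18.3 (16.5 to 20.1) in the IFN-γ library, and the 570 without 11.1 (10.1 to 11.7) and 8.83 (8.36 to 9.56). Those with the hexamer but no octamer, 277 peaks, lay between them at 13.6 (12.7 to 15.0) and 10.5, and those with neither, 293 peaks, had 8.97 (8.27 to 9.73) and 7.25. With 2 or more octamers, in 28 peaks, the medians were 26.1 (16.4 to 32.8) and 22.3 (18.8 to 29.3). The rank order showed the same gradient: the hexamer was present in 46 of the 50 best-ranked peaks (92.0%), in 112 of the next 150, in 142 of the next 200, in 110 of the 200 after those and in 47 of the last 163. The 4 best-ranked peaks without it were, besides *ATPSCKMT*/*CCT5*, those of *METTL18*/*C1orf112*, *RPL4*/*ZWILCH* and *CAB39L*/*SETDB2*. Their nearest cores, on the strands of GRCh38 named, are shown because they are the exceptions.
METTL18/C1orf112, chr1:169794934-169794963, minus strand: gtccctcaaggCCGGAAAGaaagtcgggct
RPL4/ZWILCH, chr15:66504867-66504896, minus strand: ggggcggtcaaGGGGAAGGtgacatataca
CAB39L/SETDB2, chr13:49443977-49444006, plus strand: cacacctaccgGAGGAAACagctgcgccac
Their fold enrichments were 45.2 and 55.8, 32.1 and 56.4, and 39.9 and 26.3 in the control and IFN-γ libraries. The core of *CAB39L*/*SETDB2* lay 1 bp from the control summit and that of *METTL18*/*C1orf112* 2 bp.

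Since stronger peaks held the octamer more often, its share was also compared at like fold enrichment. Among peaks with a control fold enrichment from 12 to under 24, the octamer was present in 35.6% (29.8% to 41.6%) of 267 divergent and 22.2% (20.4% to 24.2%) of 1872 one-way peaks. Below 6 the shares were 5% and 5.60%, from 6 to under 12 they were 11.2% and 8.65%, and from 24 upward 44.2% (36.0% to 52.6%) and 36.3% (32.9% to 39.9%), with overlapping intervals in these 3 ranges. Where an octamer was present its centre lay a median of 18 bp from the control summit. In all, 185 peaks had an octamer near both summits, and in 182 of them the nearest was the same octamer. This was nearly fixed beforehand, since 165 of the 193 peaks with an octamer held only 1 and most summits lay close together. The 2 summits lay within 100 bp of each other in 95.3% (91.3% to 97.8%) of the peaks with an octamer and in 67.9% (63.9% to 71.7%) of those without.

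**Figure D3:**
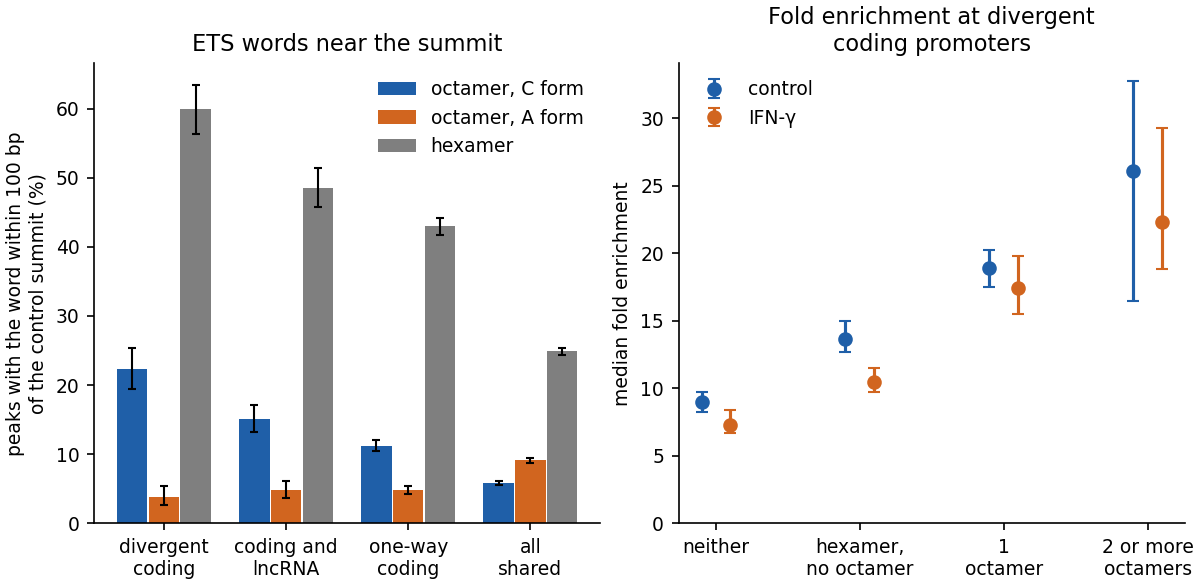
Left, share of shared peaks (%) with the octamer in its C form and its A form and with the hexamer within 100 bp of the control summit, for the 763 peaks at divergent coding promoters and 3 other classes. Right, median fold enrichment in the control (blue) and IFN-γ (orange) libraries for divergent promoter peaks with neither word, the hexamer without the octamer, 1 octamer, and 2 or more. Bars and points carry 95% intervals for counting error; the C form and the hexamer are highest at the divergent promoters, and both medians increase from left to right.

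Pooled over the promoters, octamers between the TSSs read about as often on either strand, though 148 of the peaks held only 1 there. Between the TSSs of 164 peaks there were 183 octamers, of which 97 read on the plus strand and 86 on the minus strand (53.0%, 45.5% to 60.4% on the plus strand). Octamers were counted per peak, so those of a pair with 2 peaks could be counted for each. The octamer nearest the summit read toward the nearer TSS in 69 of 116 cases (59.5%, 49.97% to 68.5%), an interval that reaches an even split. Of the 16 peaks with 2 or more octamers between the TSSs, 10 had both orientations, among them *NELFE*/*SKIC2* and *CPSF7*/*SDHAF2*. The pair with the most, 4, was *ERH*/*SLC39A9*, where *SLC39A9* encodes a zinc transporter and fold enrichment was 15.7 and 19.8. *ARHGAP1*/*ZNF408* held 3, with 28.1 and 27.6. *HARS1*/*HARS2*, which encode the cytosolic and the mitochondrial histidyl-tRNA synthetase, lay 85 bp apart with 2 octamers, and fold enrichment there was 27.4 and 28.5 from 95 and 131 fragments.

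Sites of other promoter factors were searched as letters on both strands of the same windows. The CCAAT box of NF-Y was present near 22.8% (19.9% to 25.9%) of the 763 summits and 15.7% (14.8% to 16.6%) of the one-way summits. The palindrome of NRF1, a factor of nuclear genes for mitochondria, was present near 6.42% (4.79% to 8.40%) and 4.11% (3.63% to 4.63%). The GC box of SP1, GGGCGGGG, went the other way, at 19.8% (17.0% to 22.8%) and 26.1% (25% to 27.2%), beside a lower median GC content of 66.2% against 69.7%. At the coding and non-coding RNA peaks CCAAT was near 15.9% of summits and the GC box near 25.4%. The NRF1 word was near 5.98% (4.73% to 7.44%) of them, an interval that overlaps that of the divergent coding peaks. The AP-1 word TGANTCA, frequent at the shared peaks as a whole (18.3%), was near 2.23% of the divergent and 3.63% of the one-way summits. TATAAA was near 1.44% and 1.40%, TGACGTCA, the CRE, near 2.75% and 1.91%, and CACGTG, the E-box, near 7.47% and 7.19%. The YY1 word was near 2.88% and 1.83%, the ZNF143 word near 0.393% and 0.369%, and the ZBTB33 word near 0.655% and 0.241%. In the midpoint windows of all 985 divergent pairs CCAAT was present in 34.9% and the NRF1 word in 10.9%, against 29.5% and 6.18% of the windows at one-way TSSs. TATAAA was present in 3.25% (2.23% to 4.56%) of those midpoint windows and 8.98% (8.54% to 9.43%) of the one-way windows. These windows were placed unlike, so the shares are not like for like. The one-way window ends at the TSS, whereas a midpoint window can miss the bases just upstream of both TSSs. A match is a description of letters and not of binding.

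Scaled for depth, the median IFN-γ signal at these promoters was a little under the control signal. Pileups were divided by 1.46, the ratio of the lowest backgrounds in the 2 lists, taken as their relative depth. The median ratio of IFN-γ to control pileup over the 763 peaks was 0.893 (0.869 to 0.922), against 0.808 (0.798 to 0.816) at one-way promoters and 1.03 over all shared peaks. The ratio moved with the base composition of the site. Where the GC content within 100 bp of the control summit was under 55% the median was 1.30 (1.19 to 1.37, 58 peaks), from 55% to under 65% it was 1.04 (0.987 to 1.09, 279 peaks), from 65% to under 75% it was 0.801 (0.761 to 0.847, 333 peaks), and from 75% upward 0.658 (0.605 to 0.755, 93 peaks). One-way promoters gave 1.24, 0.965, 0.787 and 0.662 in the same ranges, and all shared peaks 1.33, 1.03, 0.795 and 0.665. Across the 763 peaks Pearson's r between GC content and the log2 ratio was -0.52, a description over points that share both libraries. A difference of GC content in what the libraries recovered and a difference between the treatments cannot be told apart. Divided by the median of all shared peaks in its GC range, an adjustment added after the data were seen, the ratio had a median of 1.00 (0.971 to 1.03) over the 763 peaks and 0.978 (0.968 to 0.987) over the one-way peaks.

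**Figure D4:**
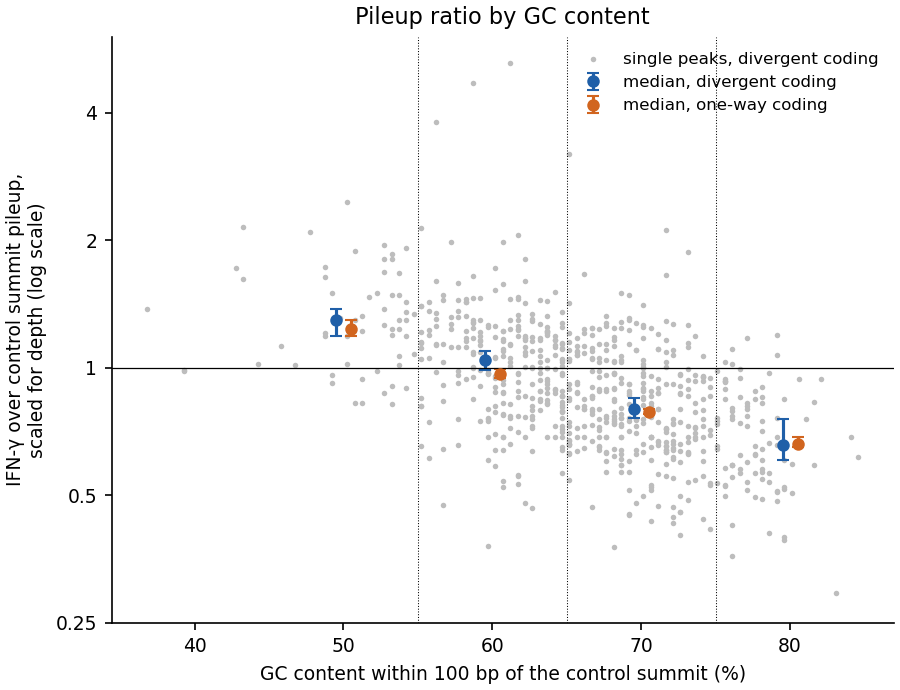
IFN-γ over control summit pileup, scaled for depth (log scale), against the GC content within 100 bp of the control summit (%). Grey points are the 763 peaks at divergent coding promoters, blue and orange points with 95% intervals are the medians of the divergent and the one-way peaks in 4 ranges of GC content, parted by dotted lines and drawn side by side. Both sets of medians fall from above 1 under 55% GC to about 0.66 from 75% upward.

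Peaks with an octamer kept more of their signal in the IFN-γ library, with a median ratio of 0.994 (0.944 to 1.08) against 0.865 (0.839 to 0.893) without. Their windows had a median GC content of 64.7% and 67.2%. Within GC ranges the medians were 1.37 and 1.20 under 55%, 1.13 (1.00 to 1.19) and 1.00 (0.940 to 1.06) from 55% to under 65%, 0.842 and 0.795 from 65% to under 75%, and 0.808 (0.711 to 0.899) and 0.622 (0.589 to 0.730) from 75% upward, higher with an octamer in each but with intervals that overlap. Divided by the median of the GC range, the ratio was 1.10 (1.03 to 1.15) with and 0.968 (0.936 to 1.01) without an octamer, intervals that do not overlap. In peaks with at least 60 fragments the depth-scaled medians were 1.02 (0.951 to 1.12) and 0.925 (0.873 to 0.973), which do.

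High and low ratios were counted only where both summits together held at least 60 fragments, which 484 of the 763 peaks did. Of these, 31 (6.40%) had a depth-scaled ratio of at least 1.5, beside 28.2% of all shared peaks of that depth, and 66 (13.6%) had the inverse, beside 11.1%. With the ratio divided by the median of its GC range the counts were 44 (9.09%, beside 19.9%) and 14 (2.89%, beside 4.42%). High ratios were thus rarer than among all shared peaks by either measure. One-way promoters gave 6.39% and 9.51% by the 2 measures, close to the divergent shares. Their shares of low ratios were 19.5% and 4.86%. The 95% interval of the depth-scaled ratio lay wholly above 1.5 in 7 of the 484 peaks and wholly below its inverse in 1. Among the 435 of them with summits within 100 bp of each other, the counts were 3 and 1. The same counts over all shared peaks were not made, so nothing is read from these.

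The 3 highest ratios were at *FAM76B*/*CEP57* (5.24, 3.10 to 9.45), *VRK3*/*ZNF473* (4.69, 2.55 to 9.45) and *CCDC115*/*IMP4* (3.80, 2.09 to 7.49). Their summits lay 688, 490 and 514 bp apart, because a single IFN-γ peak covered 2 control peaks there and the ratio set the IFN-γ summit against the weaker one. At the stronger control peak of the same promoters the ratio was 1.2 at all 3. In all, 18 of the 763 peaks shared their IFN-γ peak with another of them. Among peaks with summits within 100 bp of each other, the highest ratio was at *HYCC2*/*NDUFB3*, the second gene encoding a subunit of complex I, with 27 and 97 fragments (2.47, 1.60 to 3.93). *ATPSCKMT*/*CCT5* followed at 2.15 (1.85 to 2.50), and then *ACIN1*/*C14orf119* at 2.14 (1.44 to 3.25). Of the 10 highest such ratios 9 were in windows under 61% GC, and of the 10 lowest 1 was. *HYCC2*/*NDUFB3* and *ATPSCKMT*/*CCT5*, at 50.2% and 43.3% GC, were 1.85 and 1.61 times the median of their GC range. *UFD1*/*CDC45*, at 66.2% GC, had a ratio of 1.67 (1.41 to 1.98), which was 2.097 times the median of its range, and *RPL4*/*ZWILCH*, at 53.2%, had 1.86 (1.44 to 2.41), which was 1.39 times.

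Among peaks with at least 60 fragments the lowest ratios were at *SHARPIN*/*MAF1* (0.360, 0.244 to 0.524), where *MAF1* encodes a repressor of RNA polymerase III and the pileups were 84 and 44 fragments. *PPIL6*/*SMPD2*, the latter encoding a sphingomyelin phosphodiesterase, had 38 and 23 fragments (0.416, 0.236 to 0.716), and *ZZEF1*/*CYB5D2* had 37 and 24 (0.445, 0.255 to 0.765). Their windows had 76.1%, 74.6% and 72.1% GC and none held an octamer. *BRD9*/*TRIP13* had a ratio of 0.711 (0.596 to 0.848) at 78.1% GC, which was 1.07 times the median of its range.

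**Figure D5:**
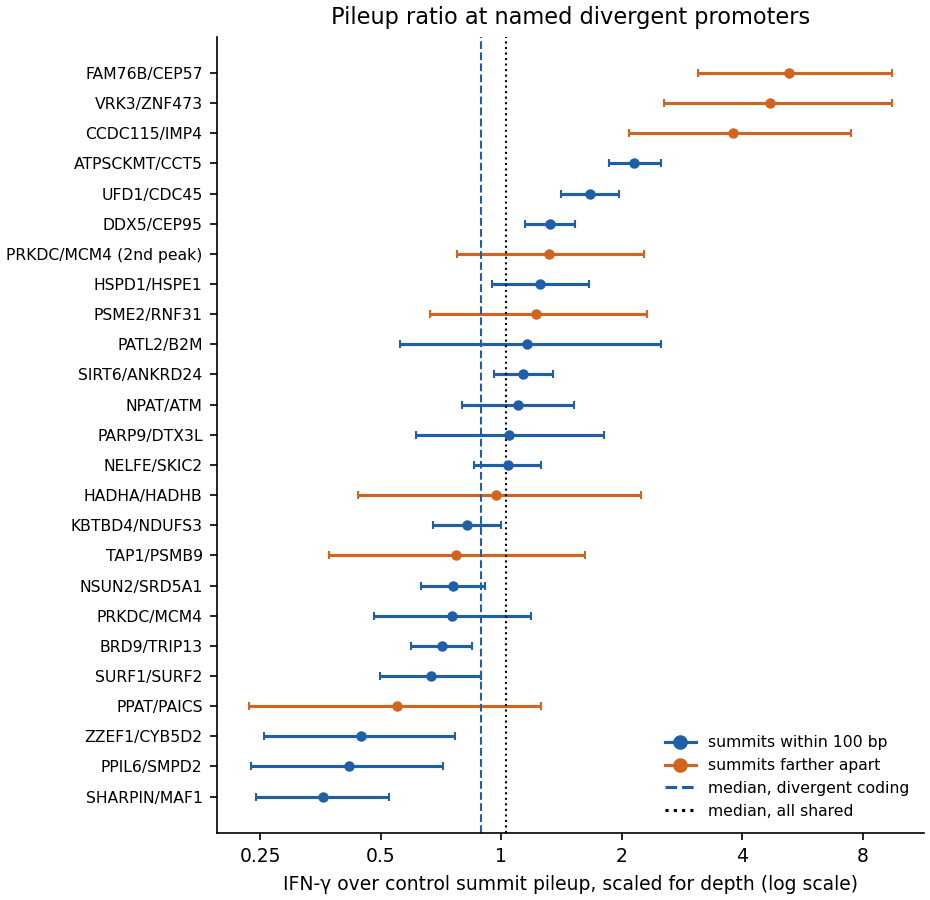
Depth-scaled ratio of IFN-γ to control pileup (log scale) with its exact binomial 95% interval for named divergent promoters, 1 point per control peak, blue where the 2 summits lay within 100 bp and orange where they were farther apart. The dashed line is the median of the 763 peaks (0.893) and the dotted line that of all shared peaks (1.03). The top 3 points, all orange, are promoters where 1 IFN-γ peak covered 2 control peaks.

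The shared peaks at genes of the IFN-γ response were weaker than the median of the 763 peaks. Of 88 such genes in a list made for this comparison, 6 (6.82%) belonged to a divergent pair, beside 9.46% of all 20046 coding genes. All 6 were at 1 of 4 shared peaks (54.1% to 100%), beside 81.5% of all divergent coding genes, a share that this interval includes. *PARP9* and *DTX3L*, whose products act together in DNA damage and antiviral responses, start 38 bp apart, and the peak had 25 fragments in the control and 38 in the IFN-γ library, with fold enrichments of 9.84 and 8.01. *PSME2*, a proteasome activator gene, and *RNF31*, a ubiquitin ligase gene, had 18 and 32 fragments (9.17 and 8.61). *B2M*, which encodes the invariant chain of MHC class I, is paired with *PATL2*, and the peak had 13 and 22 fragments (5.98 and 6.93). *TAP1* and *PSMB9*, for a peptide transporter and an immunoproteasome subunit, had 16 and 18 fragments (7.68 and 4.18), and the summits there were 346 bp apart. The depth-scaled ratios were 1.04 (0.614 to 1.80), 1.22 (0.665 to 2.31), 1.16 (0.560 to 2.51) and 0.773 (0.372 to 1.62), and every interval included 1. No octamer lay within 100 bp of the 4 control summits, though 1 lay that near the IFN-γ summit of *PSME2*/*RNF31*, 267 bp away, and the fold enrichment of each was under the median of the 763 peaks in both libraries. Over all shared peaks the medians were 7.83 (control) and 8.28 (IFN-γ). *PSME2*/*RNF31* lay above both, *PARP9*/*DTX3L* above that of the control only, and the other pairs above neither.
The nearest cores at these promoters are shown to set beside the sites above, with the strand of GRCh38.
PARP9/DTX3L, chr3:122564573-122564602, minus strand: ctgaactccacCCGGAAGGtgcccggggct
PSME2/RNF31, chr14:24147264-24147293, plus strand: cctgcggctatCCGGAAGGggtggaaccag
PATL2/B2M, chr15:44711923-44711952, minus strand: cccgcgaaagaGCGGAAGAgaaaccctccc
TAP1/PSMB9, chr6:32853765-32853794, plus strand: tcggaaagtccCAGGAACAggctgatcctg
The hexamer was present in 3 of the 4, all but *TAP1*/*PSMB9*.

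Divergent pairs of the textbooks had weak to moderately strong peaks. *SURF1*/*SURF2*, 63 bp apart, had fold enrichments of 37.4 and 23.2 from 99 and 96 fragments. *HSPD1*/*HSPE1*, the mitochondrial chaperonin and its co-chaperonin, had 27.6 and 35.8 from 82 and 149 fragments. *NPAT*/*ATM*, for a histone gene activator and a DNA damage kinase, had 26.4 and 35.8 from 65 and 104 fragments. *PPAT*/*PAICS*, of purine synthesis, had 7.79 and 4.16, and *HADHA*/*HADHB*, of fatty acid oxidation, 3.53 and 4.57, from 12 and 17 fragments. The octamer was absent from the windows of these 5 pairs. *PRKDC*/*MCM4*, of DNA repair and replication, held 2 control peaks, with 9.43 and 7.97, under 1 IFN-γ peak with 11.7. *COL4A1*/*COL4A2*, the collagen genes of basement membranes, had no peak in either list with a summit within 1 kb of both TSSs. *RANBP1*/*TRMT2A* did not meet the rule, since the canonical TSSs are not divergent within 1 kb.

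Gene groups were counted over lists of genes by function. Of all 20046 coding genes 9.46% belonged to a divergent pair, and 81.5% of these (1546 of 1897) were at a shared peak. Genes of the respiratory chain and its assembly were divergent in 41 of 127 cases (32.3%), and 36 of the 41 were at a shared peak, with a median fold enrichment of 12.6 in the control and 12.7 in the IFN-γ library and the octamer in 11 of 36 peaks. Mitochondrial ribosomal proteins had 26 of 78 genes in divergent pairs and 20 at a peak (13.6 and 9.93), led by *MRPL10*/*LRRC46* with 31.1 and 37.7. DNA replication and repair had 49 of 153 and 41 at a peak (14 and 13.9), including *RAD1*/*BRIX1* with 37.0 and 42.9. All 13 divergent genes of cytosolic ribosomal proteins were at a peak (16.0 and 17.1). *RPL12*/*LRSAM1* had 38.8 and 17.6 there, and *RPL4*/*ZWILCH* 32.1 and 56.4.

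The aminoacyl-tRNA synthetases had the highest medians, 23.5 and 18.0 over 6 peaks, with 7 of 8 divergent genes at a peak and a median ratio of 0.697. *YARS1*/*S100PBP* had 103 and 85 fragments and *EARS2*/*UBFD1* 82 and 77. Chaperones had 16 of 19 genes at a peak (11.3 and 11.8) and splicing factors 19 of 22 (14.8 and 11.8). RNA polymerases and general transcription factors had 22 of 27 (12.7 and 9.91). Genes of the proteasome list, which holds more than its subunits, had 7 of 9 (18.0 and 9.09). The intervals of these shares included that of all divergent genes. *EIF2B1*/*GTF2H3*, for a translation initiation factor and a subunit of TFIIH, had 43.5 and 37.1, with the summit on the *EIF2B1* TSS. Replication-dependent histone genes were the most often divergent (26 of 69), and 16 of the 26 were at a peak, 61.5% (40.6% to 79.8%), with the lowest medians of the lists, 5.06 and 5.14 over 11 peaks, and the octamer in 1. Of the genes of the ZNF series 39 of 515 (7.57%) were divergent, and 27 of the 39 were at a peak, 69.2% (52.4% to 83.0%), with medians of 13.1 and 16.0 and 53.0 and 44.3 at *ZNF558*/*MBD3L1*. The interval of the histone genes lay below 81.5% and that of the ZNF genes included it. Histone genes are often paired with each other, as in *H2BC12*/*H2AC12*, and both genes of such a pair share a promoter. An interval that counts genes is therefore too narrow, and no shortfall is read from it.

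The limits of the rule cut through peaks of ordinary strength. Just inside the limit on the distance between TSSs were *ATP6V1G2*/*NFKBIL1* at 1000 bp (fold enrichments of 15.1 and 17.6) and *CASKIN2*/*TSEN54* at 991 bp (27.2 and 20.5), and just outside were *PRADC1*/*CCT7* at 1069 bp (8.23 and 11.2) and *GPANK1*/*CSNK2B* at 1083 bp (15.8 and 12.2). For the distance of the summit from the farther TSS, *RPL7*/*RDH10* at 992 bp (4.94 and 5.97) and *H2BC12*/*H2AC12* at 991 bp (14.5 and 22.7) were just inside, and *FAM83H*/*IQANK1* at 1003 bp (35.4 and 26.8) and *SMIM7*/*TMEM38A* at 1014 bp (11.3 and 11.2) just outside.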

How the data were processed

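Flag-FLI1 ChIP libraries of PBS-treated and IFN-γ-treated HK1 cells were used, 1 per condition. The 2 input libraries were not analysed here. Per the methods and the submitters' processing notes, the authors used Cutadapt 1.18 for trimming, Bowtie2 2.3.4.1 for alignment (GRCh38), Picard for duplicate removal and MACS2 2.1.2 for peaks of each library; use of the input in calling is not given in the sources used here. The deposited lists give, for each summit, the fold enrichment as a ratio over background, the −log10 of the p-value and q-value, and a score that was not used. The lists gave no read totals, so the depth is known only through the recovered pileups.

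Pileup and background at each summit were solved from the fold and −log10 p under the Poisson model of MACS (largest relative error 6.21e-06). Where a peak overlapped 2 IFN-γ peaks, the one with the higher −log10 p was its partner. Shares carry exact Clopper-Pearson intervals, medians binomial order-statistic intervals and ratios exact binomial intervals, all at 95% and for counting error only. Intervals over genes treat both genes of a pair as independent, so they are too narrow for divergent genes. A peak of several pairs was named by the pair with gene symbols and the smallest gap. Motifs were searched on both strands with pysam 0.24.0, samtools 1.23.1, pandas 2.3.3 and numpy 2.4.6 in Python 3.11.15, intervals computed with scipy 1.17.1, and figures drawn with matplotlib 3.10.9. The steps were tested on simulated data.

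Named genes were the 8 best-ranked peaks, the 3 highest and 3 lowest ratios, the divergent pairs of IFN-γ response genes, up to 3 leading pairs of each other gene list, the 5 peaks with most octamers, peaks beside the limits of the rule, and textbook pairs, of which 1 is not reported here. Genes named outside this rule (*GBA2*/*RGP1*, *TSR3*/*GNPTG*, *ZNF668*/*ZNF646*, *LRRC41*/*UQCRH*, *METTL18*/*C1orf112*, *CAB39L*/*SETDB2*, *HYCC2*/*NDUFB3* and *ACIN1*/*C14orf119*) were chosen after their values were seen. The peaks, gene lists and motifs were chosen with earlier results of these data known.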

Additional observations from a re-analysis of the deposited data

How the results depend on the processing

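No paired analysis was possible because the conditions had 1 library each. Of 66 values recomputed under other settings, 39 stayed within the 95% interval of the reported value (within 1.5 times for the count of peaks) and 27 moved outside it. Of those that moved, TSSs at most 300 bp apart gave 486 peaks, 47.7% of summits between the TSSs and a ratio of 0.866. Lists of equal length gave 75.6% of pairs with a peak, fold enrichments of 14 (control) and 11.6 (IFN-γ) and a ratio of 0.923. An overlap of at least 50% of each peak gave 69.1% of pairs, 14.2 and 11.9, and the octamer in 29.1%. Summits within 100 bp of each other gave 63.0%, 15.4 and 12.9, 60.03% between the TSSs, and the octamer in 32.1%. A q-value under 1e-05 gave 74.4% of pairs, 14.2 and 11.8. Summits within 500 bp of both TSSs gave 64.6% of pairs and 60.6% between the TSSs. A motif window of 50 bp gave the octamer in 21.6%, while the core GGAA was in 97.4% and the hexamer, added after the data were seen, in 59.9%. The median ratio was 1.30 without depth scaling, 0.852 with scaling by median pileups and 1.00 with scaling within GC ranges, the last added after the data were seen. The ratio was thus above, at or below 1 by the choice of scaling. Depth limits single peaks most: 279 of the 763 held under 60 fragments over both summits and stayed out of the counts of high and low ratios.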
